A study of Caenorhabditis elegans with 6 samples.

Results

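The 10 genes described here are longevity genes known to act downstream of the transcription factor DAF-16: dod-3, dod-6, dod-18, dod-19, dod-20, dod-23, hil-1, lea-1, nnt-1 and old-1. They were taken by gene symbol from the deposited table, where all 10 had a row among 46254 genes with counts. Messenger RNA was sequenced from whole worms of Caenorhabditis elegans strain CF512, collected on day 1 of adulthood. All groups were raised from eggs at 25 °C, where the strain is sterile, for 48 h on RNAi bacteria, which carried an empty vector, daf-2 RNAi or cav-1 RNAi. Each group held 2 libraries, 1 from each of 2 biological repeats, so the spread is known from 2 samples a group. Feeding RNAi lowers a transcript without removing the gene, and the labels give neither the number of worms in a sample nor any other allele. The series title states that the groups were sequenced to compare their expression profiles.

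In the worm, DAF-2 is the insulin/IGF-1 receptor. When it is active, a kinase cascade phosphorylates DAF-16, a FOXO factor, and keeps it out of the nucleus, and when DAF-2 is reduced DAF-16 enters the nucleus and worms live longer. Genes named dod, for downstream of DAF-16, came from array studies of such worms. Class 1 genes, among them dod-3 and dod-6, were higher when insulin signalling was low, and class 2 genes, among them dod-18, dod-19, dod-20 and dod-23, were lower. The remaining members have named products. hil-1 encodes a linker histone of the H1 type, lea-1 a late embryogenesis abundant protein of a family known from tolerance to drying, nnt-1 the mitochondrial nicotinamide nucleotide transhydrogenase, and old-1 a receptor tyrosine kinase whose overexpression lengthens worm life. cav-1 encodes a caveolin, a membrane coat protein.

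RNAi lowered each target. daf-2 measured 42.6 and 188 CPM with empty vector (repeat 1, then repeat 2, an order kept throughout) and 26.4 and 30.6 CPM with its own RNAi. The log2 difference was -1.63 (SE 0.39, adjusted p = 0.03, limma with the repeat as a block). It was uneven, at -0.67 in repeat 1 and -2.58 in repeat 2. cav-1 measured 178 and 184 CPM with empty vector and 6.13 and 1.84 CPM with its own RNAi (log2 difference -5.34, SE 0.33, adjusted p = 9.41e-05, limma). It was also lower under daf-2 RNAi, at 42.7 and 21.2 CPM (log2 difference -2.545, SE 0.33, adjusted p = 0.00191, limma). The daf-16 transcript did not pass the test in any comparison, with log2 differences from empty vector of 0.32 for daf-2 RNAi and 0.39 for cav-1 RNAi. CPM here expresses a gene's counts relative to its library total, corrected by trimmed mean of M-values (TMM) factors, differences are of log2(scaled CPM + 1), and p-values are adjusted over 14378 genes with a threshold of 0.05. The libraries held between 25474328 and 32886440 counts. All 3 genes taken as markers of the early embryo fell under daf-2 RNAi. Their summed level was 13.3 to 29.7 CPM with empty vector and 1.54 to 9.92 CPM after daf-2 RNAi. After cav-1 RNAi it was 14.8 to 17.4 CPM. Of the empty vector sums, sdz-28 alone made up 23.8 and 9.80 CPM. The strain is sterile under these conditions, and the sperm markers summed to at most 0.0782 CPM in any library. Whether the samples held embryos was not tested. In bulk RNA from whole worms, fewer cells of a type and less RNA per cell cannot be told apart, and the part of these tissue differences in the results below was not tested.

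Among the members, daf-2 RNAi raised dod-6, nnt-1 and dod-19 and lowered dod-23, while dod-3, hil-1, lea-1 and dod-18 did not pass the test and dod-20 and old-1 were barely detected. The filter on low values was passed by 8 of the 10. The 3 higher members of 8 tested stand against 4.31% of all genes called higher, and the 1 lower against 3.13% called lower. The members were chosen with earlier results of these data known, so their shares here and below are not an independent test. The members' median log2 difference was 0.72, against -0.05 over all genes tested. The class 2 dod genes did not move together: dod-23 fell, dod-19 rose, dod-18 differed in sign between the repeats, and dod-20 could not be tested.

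**Figure D1:**
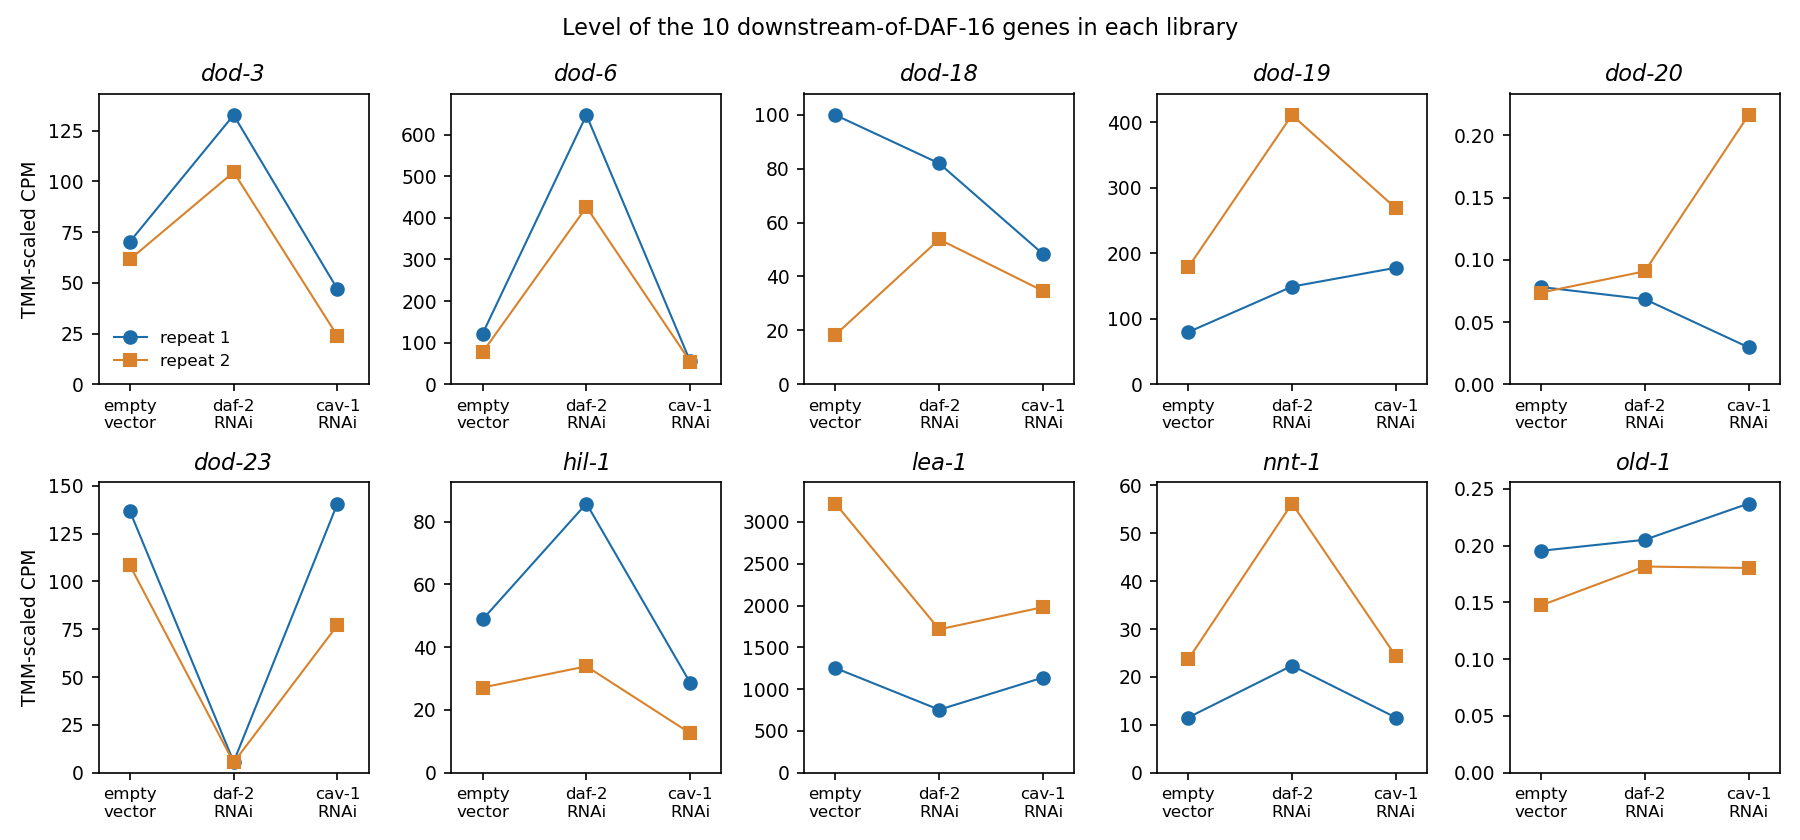
TMM-scaled CPM (vertical axes, each from 0) of each of the 10 genes in the 3 groups (horizontal axes), with circles for repeat 1 and squares for repeat 2, joined within a repeat. dod-6 peaks and dod-23 dips under daf-2 RNAi in both repeats, while dod-20 and old-1 stay below 0.3 CPM in every library.

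Of the class 1 pair, dod-6 (WBGene00011869, WBcel235 chromosome III 10197716 to 10198352 on the plus strand, 2 exons) gave the largest rise of any member. It stood at 122 and 77.1 CPM with empty vector and at 647 and 426 CPM under daf-2 RNAi. Both daf-2 RNAi libraries lay above both empty vector libraries. The log2 difference was 2.43 (SE 0.24, adjusted p = 0.000583, limma), a 5.38-fold rise that ranked 28th from the highest of the genes tested. The rise was alike within the repeats, at 2.40 in repeat 1 and 2.45 in repeat 2. The fit without the repeat block did not call it (adjusted p = 0.463), and that fit called no gene of the table in any comparison of groups.

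dod-3 (WBGene00016052, WBcel235 chromosome V 2730622 to 2731098 on the minus strand, 2 exons) stood at 70.2 and 61.5 CPM with empty vector and at 133 and 105 CPM under daf-2 RNAi. The groups did not overlap, but the log2 difference of 0.83 (SE 0.25) missed the threshold (adjusted p = 0.0793, limma). It was 0.91 within repeat 1 and 0.76 within repeat 2. The 95% interval ran from 0.27 to 1.39.

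Among the class 2 genes, dod-23 (WBGene00009898, WBcel235 chromosome II 8398161 to 8399164 on the minus strand, 3 exons) gave the largest difference of the members. It held 3500 and 2945 counts with empty vector, or 137 and 108 CPM, and 168 and 178 counts under daf-2 RNAi, or 5.74 and 5.39 CPM. Every daf-2 RNAi library lay far below every other library. The log2 difference was -4.23 (SE 0.26, adjusted p = 3.49e-05, limma), an 18.7-fold fall, and only 1 of the genes tested had a lower value. It was -4.35 within repeat 1 and -4.10 within repeat 2. Without the repeat block the adjusted p was 0.215.

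dod-19 (WBGene00022644, WBcel235 chromosome V 411782 to 414759 on the minus strand, 6 exons) moved opposite to its class. It stood at 79.6 and 178 CPM with empty vector and at 149 and 411 CPM under daf-2 RNAi. The groups overlapped, because repeat 2 was higher throughout, but within each repeat daf-2 RNAi was the higher, by 0.90 in repeat 1 and 1.2 in repeat 2. The log2 difference was 1.05 (SE 0.25, adjusted p = 0.0298, limma), or 2.07-fold. It did not pass without empty vector repeat 1 (0.98, adjusted p = 0.0787), empty vector repeat 2 (1.11, adjusted p = 0.0684) or daf-2 RNAi repeat 2 (0.96, adjusted p = 0.205), nor without the repeat block (adjusted p = 0.991).

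dod-18 (WBGene00008316, WBcel235 chromosome I 8019578 to 8020901 on the minus strand, 5 exons) had no stable direction. It stood at 99.9 and 18.3 CPM with empty vector, at 82.0 and 53.8 CPM with daf-2 RNAi and at 48.3 and 34.6 CPM with cav-1 RNAi. Empty vector held both the highest and the lowest of the 6 libraries. The log2 difference under daf-2 RNAi was -0.28 in repeat 1 and 1.5 in repeat 2, and 0.61 in the fit (SE 0.40, adjusted p = 0.344, limma). Without empty vector repeat 1 it was 1.53 and passed (adjusted p = 0.00346), and without empty vector repeat 2 it was -0.31. Exons of C54G4.7 on the opposite strand cover 304 nt of the gene's exons. C54G4.7 stood at 182, 154 and 130 CPM in repeat 1 and at 52.2, 55.4 and 54.2 CPM in repeat 2, in the order empty vector, daf-2 RNAi, cav-1 RNAi. The library kit kept the strand, but whether the counting used it is not given in the sources used here, so reads from the pair may not be told apart.

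dod-20 (WBGene00015259, WBcel235 chromosome V 422433 to 424177 on the plus strand, 6 exons) lies near dod-19 and was close to the detection limit. It held 2 and 2 counts with empty vector, 2 and 3 with daf-2 RNAi and 1 and 6 with cav-1 RNAi. The sums of 4, 5 and 7 counts have exact Poisson intervals at 95% of 1.09 to 10.2, 1.62 to 11.7 and 2.81 to 14.4, which cover counting error only. They overlap, but they are not scaled for library size, and overlap alone does not exclude a difference. In the fit without the filter dod-20 did not pass in any comparison. Its unadjusted p was 0.96 for daf-2 RNAi and 0.34 for cav-1 RNAi against empty vector, and 0.36 between the treatments (limma).

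Among the members with named products, nnt-1 (WBGene00003778, WBcel235 chromosome X 6122311 to 6127554 on the plus strand, 18 exons) rose under daf-2 RNAi. It stood at 11.5 and 23.6 CPM with empty vector and at 22.4 and 56.2 CPM under daf-2 RNAi. The groups overlapped across repeats, with daf-2 RNAi higher by 0.90 in repeat 1 and 1.21 in repeat 2. The log2 difference was 1.06 (SE 0.25, adjusted p = 0.0310, limma), or 2.08-fold. It did not pass without empty vector repeat 2 (0.97, adjusted p = 0.197), daf-2 RNAi repeat 1 (1.22, adjusted p = 0.102) or daf-2 RNAi repeat 2 (1.1, adjusted p = 0.183), nor without the repeat block (adjusted p = 0.991). Its exons share 27 nt with C15H9.9 on the opposite strand.

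lea-1 (WBGene00002263, WBcel235 chromosome V 10011923 to 10028168 on the plus strand, with 17 annotated transcripts, the longest of 11 exons) had the highest CPM of the members in every library, on a scale not corrected for length. It stood at 1253 and 3220 CPM with empty vector and at 754 and 1715 CPM under daf-2 RNAi. The groups overlapped, but daf-2 RNAi was the lower within each repeat, by -0.73 and -0.91. The log2 difference of -0.82 (SE 0.23) missed the threshold (adjusted p = 0.0590, limma), while the authors' deposited table gives -0.83 with an adjusted p of 0.0102. The other calls on the members in that table were those of the present fit. Summed over transcripts, the counts cannot show which lea-1 isoform differed. Its exons share 19 nt with acl-2 on the opposite strand.

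hil-1 (WBGene00001852, WBcel235 chromosome V 14949777 to 14952799 on the plus strand, 5 exons) stood at 48.8 and 27.1 CPM with empty vector and at 85.7 and 33.9 CPM under daf-2 RNAi. The groups overlapped, and the log2 difference was 0.55 (SE 0.25, adjusted p = 0.203, limma), with 0.80 in repeat 1 and 0.31 in repeat 2. old-1 (WBGene00003862, WBcel235 chromosome II 9866464 to 9868747 on the minus strand, 9 exons, of which 15 nt are shared with chil-1 on the same strand) held 5 and 4 counts with empty vector, 6 and 6 with daf-2 RNAi and 8 and 5 with cav-1 RNAi. Its sums of 9, 12 and 13 counts have overlapping exact Poisson intervals, from 4.12 to 17.1, 6.2 to 21 and 6.92 to 22.2. In the fit without the filter old-1 did not pass in any comparison. Its unadjusted p was 0.66 for daf-2 RNAi and 0.44 for cav-1 RNAi against empty vector, and 0.74 between the treatments (limma).

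**Figure D2:**
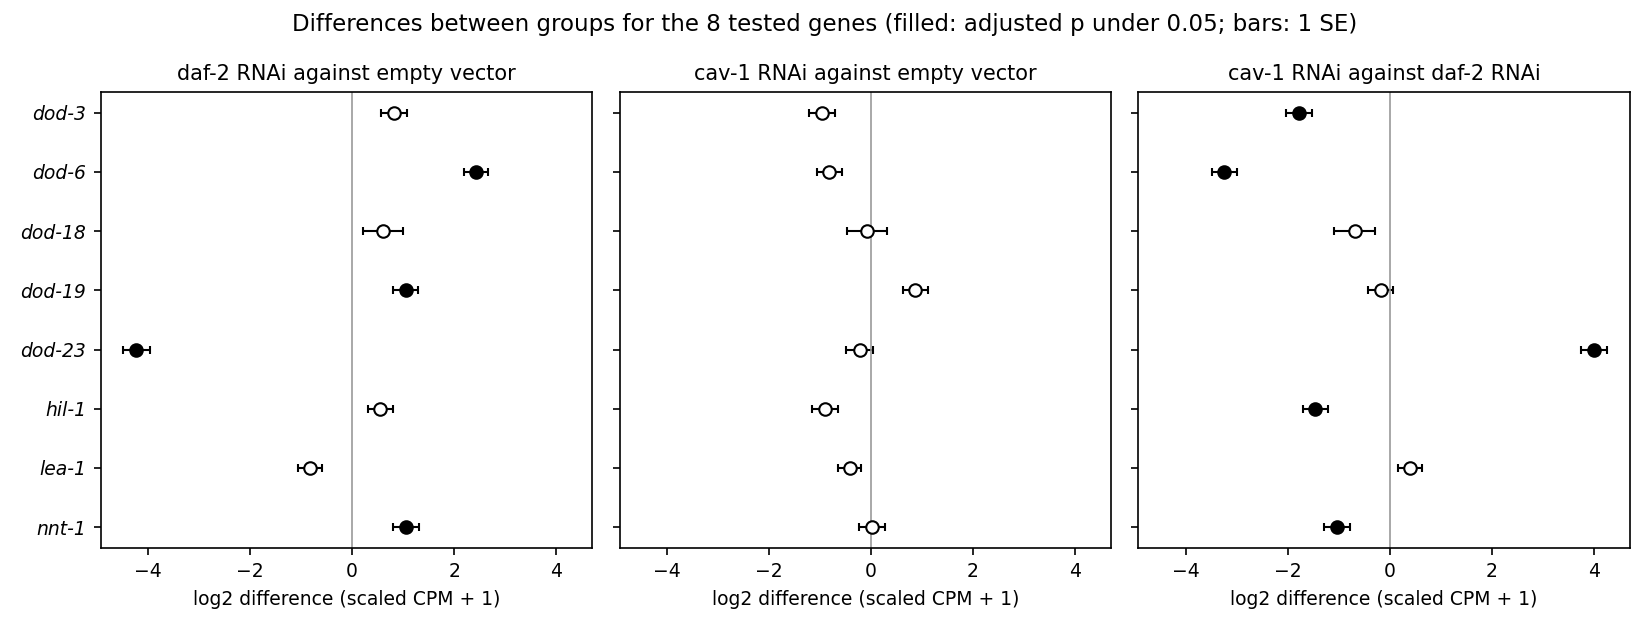
Log2 differences of scaled CPM + 1 (horizontal axes) for the 8 tested genes (rows) in the 3 comparisons, with bars of 1 SE and filled points where the adjusted p was under 0.05. Filled points number 4 for daf-2 RNAi, 0 for cav-1 RNAi and 5 between the treatments, with dod-6 and dod-23 farthest from 0.

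Under cav-1 RNAi no member passed the test, against 0.00696% of all genes called, which is 1 gene, cav-1 itself. dod-3, dod-6 and hil-1, which were lower, and dod-19, which was higher, had an unadjusted p under 0.05 (limma). These were 4 of the 8 tested, against 3.99% of all genes. By the same measure daf-2 RNAi gave 7 of the 8, against 3486 of 14378 genes. Between the treatments it was 5 of the 8, against 5220 genes. After cav-1 RNAi the members' median log2 difference was -0.32, against -0.01 over all genes. The authors' deposited table also calls none of them, and calls 81 genes in all.

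dod-3 stood at 46.8 and 23.8 CPM under cav-1 RNAi, both below the empty vector libraries at 70.2 and 61.5 CPM. The log2 difference was -0.95 (SE 0.25, adjusted p = 0.544, limma), at -0.57 in repeat 1 and -1.33 in repeat 2. It lay 100th from the lowest of the genes tested.

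dod-6 stood at 54.9 and 54.5 CPM under cav-1 RNAi, again below both empty vector libraries. The log2 difference was -0.81 (SE 0.24, adjusted p = 0.6997, limma), at -1.13 in repeat 1 and -0.49 in repeat 2. Without cav-1 RNAi repeat 2 it was -1.198 and passed (adjusted p = 0.0281), as did dod-19 at 1.15 (adjusted p = 0.0380).

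dod-19 stood at 178 and 269 CPM under cav-1 RNAi, higher than empty vector within each repeat, by 1.15 and 0.59, with overlapping groups. Its log2 difference of 0.87 (SE 0.25, adjusted p = 0.670, limma) lay 48th from the highest of all genes. hil-1 stood at 28.6 and 12.59 CPM, lower within each repeat by -0.75 and -1.05, and its difference was -0.90 (adjusted p = 0.593, limma).

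Of the other tested members, nnt-1, dod-23 and lea-1 were nearer to empty vector in the fit. nnt-1 stood at 11.5 and 24.3 CPM under cav-1 RNAi against 11.5 and 23.6 CPM, a log2 difference of 0.02 with a 95% interval from -0.54 to 0.58. dod-23 stood at 141 and 77.1 CPM, and its difference of -0.22 had an interval from -0.80 to 0.35. lea-1 stood at 1139 and 1981 CPM (difference -0.42, interval -0.93 to 0.09). dod-18 differed in sign between the repeats, at -1.03 and 0.88. Its difference of -0.08 averages these opposite signs and had an interval from -0.96 to 0.80. dod-23 also differed in sign, at 0.040 and -0.49.

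**Figure D3:**
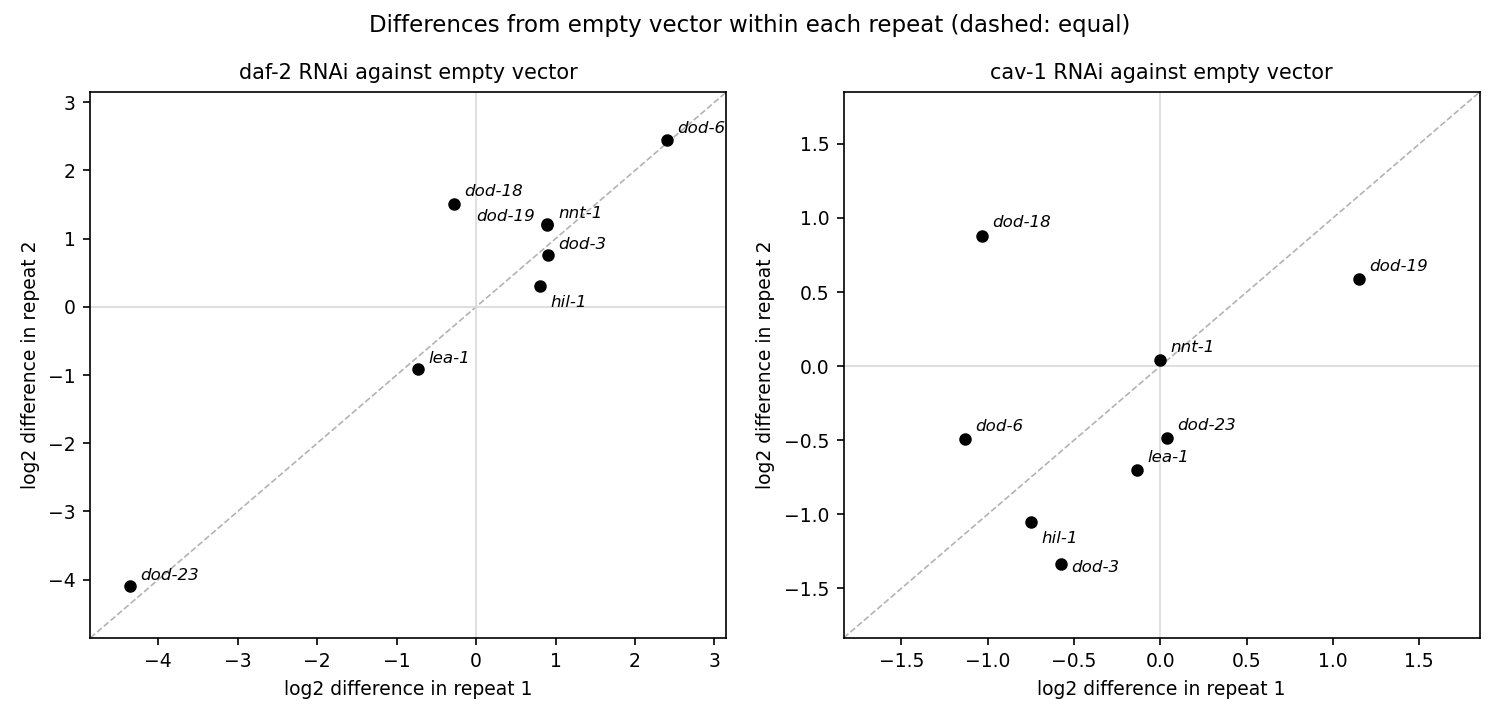
Log2 differences from empty vector in repeat 1 (horizontal axes) and repeat 2 (vertical axes) for the 8 tested genes, with 1 point per gene and a dashed line where the repeats are equal. Under daf-2 RNAi every gene but dod-18 has the same sign in both repeats. Under cav-1 RNAi dod-18 again changes sign, from -1.03 to 0.88, as does dod-23, from 0.040 to -0.49. There nnt-1 lies near 0 in both repeats, at -0.00042 and 0.040.

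Set directly against each other, the treatments differed at 5 of the 8 tested members. dod-6, dod-3, hil-1 and nnt-1 were lower under cav-1 RNAi than under daf-2 RNAi, against 6.87% of all genes called lower, and dod-23 was higher, against 3.74% called higher. The members' median log2 difference was -0.86, against -0.01 over all genes. Of all genes tested, 538 were higher and 988 lower, but with median-of-ratios size factors in place of TMM 1902 were higher and 1191 lower, so the balance of directions depends on the scaling. The calls on the members were the same under both. This comparison uses the same daf-2 RNAi and cav-1 RNAi libraries as the comparisons above and is not independent of them.

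dod-6 differed by -3.24 on the log2 scale (SE 0.24, adjusted p = 6.37e-05, limma), 9.44-fold, and ranked 13th from the lowest. dod-23 differed by 4.003 (SE 0.26, adjusted p = 3.67e-05, limma), 16-fold, and ranked 2nd from the highest. Neither lost its call when any 1 library was left out.

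dod-3 was lower under cav-1 RNAi by a log2 difference of -1.79 (SE 0.25, adjusted p = 0.00280, limma), 3.45-fold, although it passed against empty vector in neither treatment. hil-1 was likewise lower, at -1.46 (SE 0.25, adjusted p = 0.00589, limma), 2.74-fold. In both genes the daf-2 RNAi libraries all lay above the cav-1 RNAi libraries. The hil-1 call was lost without daf-2 RNAi repeat 1 (-1.28, adjusted p = 0.0673) and without cav-1 RNAi repeat 1 (-1.499, adjusted p = 0.0760).

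nnt-1 was lower by -1.04 (SE 0.25, adjusted p = 0.0290, limma), with overlapping groups. Its call was lost without daf-2 RNAi repeat 1 (adjusted p = 0.111), daf-2 RNAi repeat 2 (adjusted p = 0.151) or cav-1 RNAi repeat 1 (adjusted p = 0.0967). dod-19, lea-1 and dod-18 did not pass, at -0.18, 0.40 and -0.69. For dod-19 the 95% interval ran from -0.73 to 0.37, and its sign differed between the repeats, at 0.25 and -0.61.

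Lists of other genes known to respond to insulin signalling were read from the same fit. The lists were chosen with earlier results of these data known, so their shares of calls are not an independent test. Of 27 other genes taken as raised when signalling is low, 23 were tested. Under daf-2 RNAi 10 passed as higher and 1 as lower, against 4.31% and 3.13% of all genes, and the median log2 difference was 0.87. The largest rises were dao-6 at 3.06, the mitochondrial superoxide dismutase gene sod-3 at 2.09 and the metallothionein gene mtl-1 at 1.88, and the alcohol dehydrogenase gene sodh-1 was the 1 called lower, at -1.196. None passed under cav-1 RNAi, where the median was -0.57. Between the treatments 20 of the 23 passed as lower under cav-1 RNAi, against 6.87% of all genes, and none passed as higher. The median was -1.62, and aqp-1 (0.63) and sip-1 (0.34) were on the other side of 0 without passing.

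Of 11 other genes taken as lowered, 10 were tested. Under daf-2 RNAi 5 passed as lower, against 3.13% of all genes, and none passed as higher, with a median of -0.89. The largest falls were dod-24 at -3.86, dod-22 at -3.78 and the yolk protein gene vit-5 at -2.35. The other yolk protein gene of the list, vit-2, did not pass (-0.28, SE 0.29, adjusted p = 0.530, limma). None passed under cav-1 RNAi (median -0.05), and 6 passed as higher under cav-1 RNAi than under daf-2 RNAi, against 3.74% of all genes, with a median of 1.35. Among the dod genes outside the members, dod-17 (-0.84, adjusted p = 0.228, limma) and dod-21 (-0.43, adjusted p = 0.235, limma) did not pass under daf-2 RNAi. dod-19 was thus the only one of the 7 tested class 2 dod genes with a call in the direction opposite to its class.

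**Figure D4:**
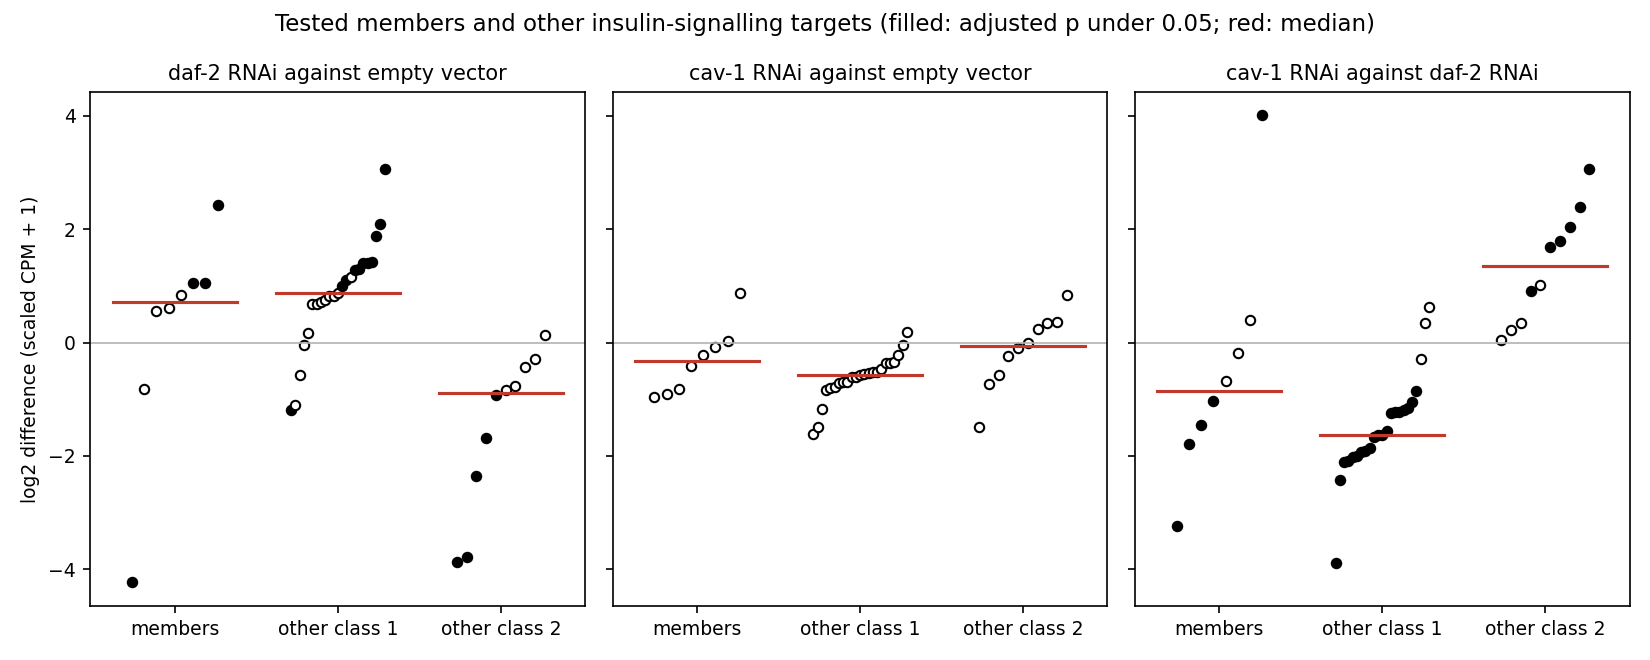
Log2 differences of scaled CPM + 1 (vertical axis) for the tested members, 23 other genes taken as raised (other class 1) and 10 taken as lowered (other class 2) when insulin signalling is low, in the 3 comparisons. Each point is a gene, filled where the adjusted p was under 0.05, and red lines are medians, which for other class 1 were 0.87, -0.57 and -1.62.

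Between the repeats, the members were called at about the share of all genes. Of the 8 tested, 5 passed between repeats in a fit that kept the groups, against 57.6% of all genes. lea-1, nnt-1 and dod-19 were higher in repeat 2, by log2 differences of 1.11, 1.09 and 1.07, and hil-1 and dod-18 were lower, by -1.09 and -1.15. dod-3, dod-6 and dod-23 lay between -0.49 and -0.42 and did not pass. Genes of like length had a median repeat difference of -0.51 for the shortest member, dod-3 (420 nt), and of 1.21 for the longest. For lea-1 and nnt-1, with longest transcripts of 4455 and 3241 nt, those medians of 1.21 and 0.91 were close to the genes' own differences. dod-19, hil-1 and dod-18 lay outside the quartiles of genes of like length. For dod-19 those quartiles were -0.64 and 0.29, with a median of -0.18 over 3438 genes, and for hil-1 and dod-18 the lower quartiles were -0.90 and -1.03. With the trend of each library on length removed, 2 of the 8 members passed between repeats, against 6614 of 14270 genes. The part of length in the members' repeat differences was not tested.

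**Figure D5:**
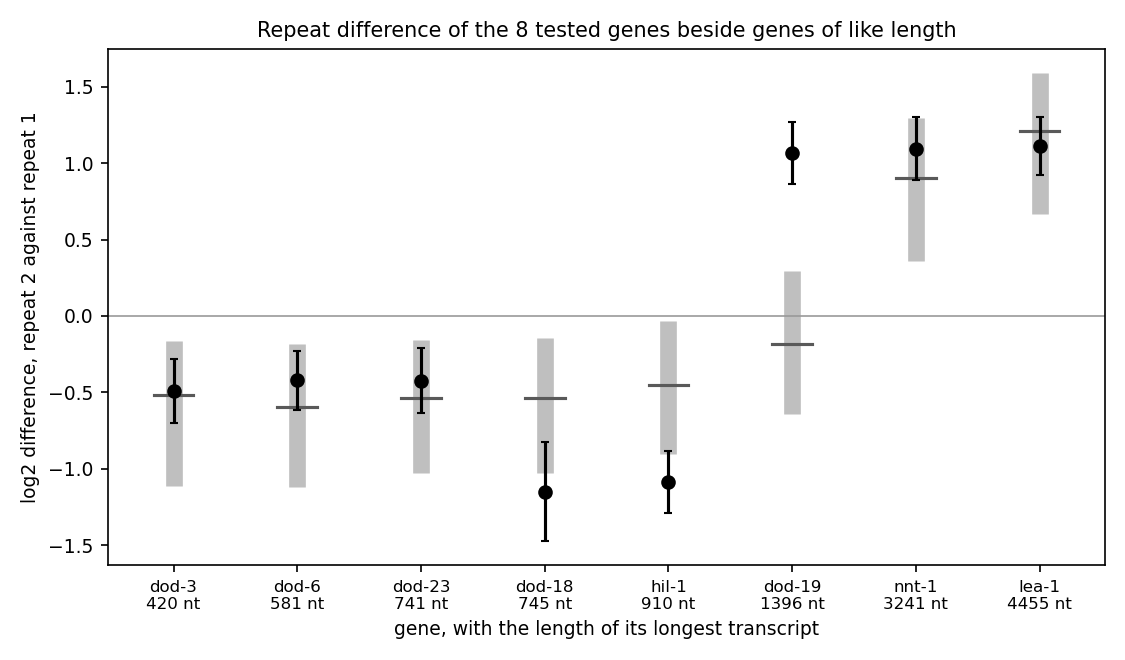
Log2 difference between repeat 2 and repeat 1 (vertical axis) for the 8 tested genes in order of transcript length (horizontal axis), as points with bars of 1 SE. Grey bars run between the quartiles of genes of like length and dark lines their medians; dod-19, at 1.07, lies above its grey bar, and hil-1, at -1.09, and dod-18, at -1.15, lie below theirs.

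Per kilobase of the longest transcript, the members' levels spanned a wide range. With empty vector lea-1 was highest, at 502 ± 312 scaled CPM per kb (SD, n = 2). It was followed by dod-6 at 171 ± 54.1, dod-23 at 166 ± 27 and dod-3 at 157 ± 14.6, whose libraries overlapped. dod-19 (92.4 ± 50.1) and dod-18 (79.4 ± 77.4) overlapped each other, and dod-18, whose libraries ran from 24.6 to 134, also overlapped dod-6 above it and hil-1 (41.7 ± 16.8) below it. nnt-1 lay lower, at 5.43 ± 2.64, and old-1 and dod-20 stood at 0.0991 ± 0.0197 and 0.0572 ± 0.0024 scaled CPM per kb. Under daf-2 RNAi the order of the first pair was the other way round, with dod-6 at 1114 and 733 and lea-1 at 169 and 385 scaled CPM per kb.

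The genes whose pattern over the 6 libraries lay closest to each called member were found by Euclidean distance between repeat-centred log2 values, among 9100 genes averaging 5 CPM or more. For dod-6 these were gst-3, at a distance of 0.53, and spp-12, at 0.55, against a median of 3.58 over all genes compared. For dod-23 they were F08G5.6, at 0.83, and C32H11.4, at 1.16, against a median of 4.61. For nnt-1 they were ZK1055.6 and oac-46, at 0.11 each, and for dod-19 ZC434.9 and C49C8.5, at 0.34 each. The medians for the latter members were 1.47 and 1.41. gst-3 and spp-12 averaged 5.90 and 6.02 CPM, close to the 5 CPM limit, against 230 CPM for dod-6. The scale understates the change of low genes, so their closeness to dod-6 is not a likeness in fold change.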

How the data were processed

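Stranded mRNA libraries from 1 µg of RNA were sequenced for 6 samples. The authors deposited a single table of raw read counts per gene with their own comparisons. The submitters' processing notes name DESeq2 1.10.1, TopHat2 2.0.13, cutadapt 1.7.1, bcl2fastq 2.15.0.4 and Cufflinks 2.2.1, and build WBcel235, without saying what each did. The sources used here do not state the counting tool, annotation release, strand mode or treatment of shared reads. Deposited log2 fold changes and adjusted p-values are the authors' own, per the labels and file headers. Gene positions and exons came from Ensembl's WBcel235 annotation.

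Of 46748 genes, 494 had no value and were left out. Because of those entries the planned count-based test was not run, and the log-scale test planned for that case was used. Genes with at least 0.348 CPM (10 counts in a median library) in 2 libraries and 15 counts in all were tested, 14378 genes with 99.96% of the counts, so dod-20 and old-1 were not. Libraries were scaled by TMM factors from 0.922 to 1.04. log2(scaled CPM + 1) was fitted by limma-trend (R 4.3.3, limma 3.58.1) to all 6 libraries with the repeat as a block, and 2-sided p-values were adjusted by Benjamini-Hochberg within each contrast at a threshold of 0.05. Residual degrees of freedom were 2 and prior ones 8.68. A fold change on this scale understates the change of low genes. The script was tested on simulated data.

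The series' design text pairs the samples by repeat. Deviations of same-numbered libraries from group means correlated at 0.891, 0.807 and 0.812 over 14378 genes. The members, the gene lists and the blocked fit were chosen with earlier results of these data known, among them that an unblocked fit calls no gene. Named genes were the members, both targets and daf-16, the other dod genes, the 3 largest calls per list under daf-2 RNAi with any call against the class, and the 2 nearest genes per called member.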

Additional observations from a re-analysis of the deposited data

How the results depend on the processing

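The fit with the repeat as a replicate block is the one reported. With no replicate block 0 genes and 0 members passed in each comparison of groups, and the paired calls of dod-6 and dod-23 under daf-2 RNAi, which passed under every other alternative, were lost too. Members called ranged from 2 to 5 under daf-2 RNAi, 0 to 2 under cav-1 RNAi, 3 to 6 between the treatments and 4 to 6 between repeats when 1 library was left out, where a lone sample is assumed to vary like the other groups. In the reported fit 5 of the 8 tested members passed between repeats, against 57.6% of all genes. The range between repeats therefore does not set the members apart. Removing the length trend left 2 members called between repeats, against 6614 of 14270 genes. Over the whole table, daf-2 RNAi gave 1070 calls, and 697 to 2197 with 1 library left out. cav-1 RNAi gave 1 call, 6 with size factors, 2 with a pseudocount of 0.5, 26 with the stricter filter (1 CPM in 4 libraries), 82 with the 4 libraries compared, 81 in the authors' deposited table, and 0 to 401 with 1 library left out, the last without cav-1 RNAi repeat 2. cav-1 RNAi against daf-2 RNAi gave 1526 calls, 3093 with size factors, 2605 with the stricter filter, 3076 with the 4 libraries compared, 3487 in the authors' deposited table, and 68 to 4205 with 1 library left out, without cav-1 RNAi repeats 1 and 2 respectively. Signs changed in some settings. With 1 library left out, dod-18 ranged from -0.31 (without empty vector repeat 2) to 1.53 under daf-2 RNAi, and from -1.0005 to 0.85 under cav-1 RNAi, where it was 0.85 without empty vector repeat 1 and 0.46 without cav-1 RNAi repeat 1. Under cav-1 RNAi nnt-1 ranged from -0.069 to 0.11, with -0.017 without cav-1 RNAi repeat 1, and dod-23 from -0.52 to 0.032, while dod-19 between the treatments ranged from -0.55 to 0.10, the last value of both without cav-1 RNAi repeat 2. With the length trend removed dod-18 and nnt-1 under cav-1 RNAi were at 0.025 and -0.084. dod-3 passed under daf-2 RNAi with total counts (adjusted p = 0.0499, limma), the stricter filter (0.0298), the 4 libraries compared (0.0263) and without either cav-1 RNAi library (0.0251 and 0.00704). lea-1 passed with a pseudocount of 0.5 (adjusted p = 0.0498, limma) and without empty vector repeat 1 (0.0246), and dod-18 between the treatments without cav-1 RNAi repeat 2 (-1.27, 0.00114). The causes were not tested. The count-based refit was not run. dod-20 and old-1 were below the filter on low values, and depth was not tested for the other members.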

Other observations

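Markers of other tissues moved under daf-2 RNAi beside the members. The intestinal esterase gene ges-1 rose by a log2 difference of 1.56 (SE 0.24, adjusted p = 0.00395, limma), the pharyngeal myosin gene myo-1 by 1.15 (SE 0.28, adjusted p = 0.0339, limma) and the adult cuticle collagen gene col-19 by 0.93 (SE 0.23, adjusted p = 0.0359, limma). Not all markers of these tissues moved so. Of the other intestinal markers elt-2 (0.62, adjusted p = 0.198, limma) and vha-6 (0.14, adjusted p = 0.687, limma) did not pass, nor did myo-2 of the pharynx (1.09, adjusted p = 0.0919, limma). Of the hypodermis elt-3 (0.84, adjusted p = 0.145, limma) and dpy-7 (-0.45, adjusted p = 0.208, limma) did not pass. The 3 germline and oocyte markers, glh-1, pgl-1 and rme-2, did not pass, with a median of -0.59. None of these markers passed under cav-1 RNAi. The intestinal markers summed to 153 and 328 CPM with empty vector (repeat 1, then repeat 2) and to 223 and 476 CPM after daf-2 RNAi, of which ges-1 made up 23.7 and 59.4 CPM and then 62.2 and 205 CPM. The pharyngeal markers summed to 3.52 and 103 CPM in the same empty vector libraries, so their level differed far more between repeats than between groups.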
